A study of Mesocricetus auratus with 8 samples.

Results

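The genes described are 46 that act in the G2 phase of the cell cycle and in mitosis, from the kinase that starts mitosis to the motors and rings that divide the cell. They were taken by gene symbol from a list that was proposed with earlier results of these data in view. Of the 46, 45 had values in the deposited table, out of 17590 genes with values in the series, and all 45 passed the filter on low counts that left 12506 genes for testing. Incenp, a scaffold of the chromosomal passenger complex, was not analysed here.

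RNA was sequenced from cultured satellite cells (SCs), the stem cells that repair muscle fibres, of wild-type Syrian hamsters (Mesocricetus auratus). The SCs came from hindlimb muscles of male animals and were enriched by preplating, so other adherent cells could remain. All cultures were kept in growth medium at 37°C for 48 h and then in growth medium with HEPES at 37°C for 24 h. The 4 control libraries were collected then (0 h at 4°C), and the 4 cold libraries after a further 24 h at 4°C, so cold and the later collection cannot be told apart. The sample names place all control libraries at day 3, whereas the treatment labels of control replicates 1 to 4 read 3, 4, 5 and 6 days at 37°C. The labels do not say whether a replicate number marks an animal, a culture or a day. The study calls the libraries biological replicates but does not say whether these were separate animals or cultures. The p-values therefore measure the spread between these libraries, which may not be a spread between animals.

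Libraries held 16530747 to 18533801 estimated counts. Levels are given in TPM, the share of transcripts scaled for gene length and library size. Of the defining markers of the labelled cells, Pax7 was at 10.8, 11.8, 15.8 and 12.5 TPM in control replicates 1 to 4 and at 12.9, 12.7, 16.1 and 12.4 TPM in cold replicates 1 to 4, and Myod1 at 666, 693, 634 and 463 TPM against 604, 647, 593 and 424 TPM. The summed level of 10 satellite cell and myoblast markers was 1988 to 2432 TPM in control and 1887 to 2239 TPM in cold, 6 of the 10 had a log2 fold change below 0, and 0 passed without the block (0 higher and 1 lower at an unadjusted p under 0.05, beside 2.57% and 4.13% of all genes). With the replicate number as a block 4 fell and 1 rose, beside 4.07% and 1.26%. Markers of leukocytes (Ptprc, Adgre1), endothelium (Kdr, Vwf) and fat (Adipoq) did not exceed 0.09 TPM in any library, but others of their lists were detected. Over all 6 endothelial markers the sum was 2.06 to 4.05 TPM in control and 2.26 to 3.84 TPM in cold. Over all 6 fat and Schwann cell markers it was 2.45 to 3.5 TPM in control and 2.24 to 3.3 TPM in cold. The summed level of 5 leukocyte markers was 40.9 to 97.2 TPM in control and 44.1 to 105 TPM in cold, and the 3 tested had a log2 fold change above 0. Fibroblast markers were present, with summed levels of 1226 to 1752 TPM in control and 1214 to 1700.0 TPM in cold, and 5 of the 9 measured had a log2 fold change above 0. The part of any of these cell types in the results was not tested. In both groups the libraries of replicate numbers 1 and 2 stood apart from those of 3 and 4, along principal component 1, which carried 53.9% of the variance over all genes, and cold parted from control along component 2 with 17.9%. Same-numbered libraries of the groups deviated together, so the replicate number was also used as a block, which compares each cold library with the control library of its number.

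Cells enter mitosis when cyclin-dependent kinase 1 (CDK1), bound to A and B cyclins, is freed from inhibitory phosphates by the CDC25 phosphatases and from inhibitor proteins such as p21. Most genes described here are transcribed in G2 and mitosis under the transcription factors FOXM1 and MYBL2 with the MuvB complex, and their transcripts fall when cells leave the cycle. Activated SCs proliferate as myoblasts that express these genes, before they exit the cycle and differentiate into muscle fibres.

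The question was whether transcripts of the G2/M and mitotic programme differed after 24 h at 4°C. The study defined a differentially expressed gene by an absolute log2 fold change of 1 or more and an adjusted p under 0.05. In edgeR without a block, 0 of 45 genes of the set reached this level, where 5 of all 12506 genes (0.0400%) were called. The study's own analysis reported more genes at these thresholds, all of them lower in cold. Without the fold threshold the count was again 0 of 45 in edgeR's quasi-likelihood test, beside 9 of all genes (0.0720%). The lowest adjusted p was 0.307, that of Ndc80. At an unadjusted p under 0.05, 16 of 45 were higher in cold and 0 lower, beside 2.57% of all genes called higher by that rule.

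The fitted changes were small and had the same sign. All 45 genes had a log2 fold change above 0, against 52.9% of all genes tested. Their median was 0.11 on the log2 scale, against 0.0071 over all genes, and they ran from 0.0075 (Cenpa) to 0.22 (Cenpe). The 95% intervals bounded these changes from above. Without the block the largest upper bound was a 1.41-fold higher level, for Ect2, and with the block the largest was 1.26-fold, for Cenpe. In bulk RNA, a change in the share of cells in G2 and mitosis and a change in the RNA of each such cell cannot be told apart.

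With the replicate number as a block, 9 of the 45 genes rose at an adjusted p under 0.05, where 158 of all genes (1.26%) were called higher. These were Ccnb1, Bub1b, Ube2c, Cenpe, Ndc80, Kif20a, Hmmr, Prc1 and Mki67, and their blocked log2 fold changes lay between 0.13 and 0.22. At an unadjusted p, 27 of 45 were higher with the block, beside 8.48% of all genes. DESeq2 called 1 gene of the set higher without the block (Kif20a), beside 0.0305% of the genes it tested, and 2 with it (Kif20a and Hmmr), beside 0.283%. Apart from Kif20a in DESeq2, no gene of the set was called from all 8 libraries unless the pairing was used.

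**Figure D1:**
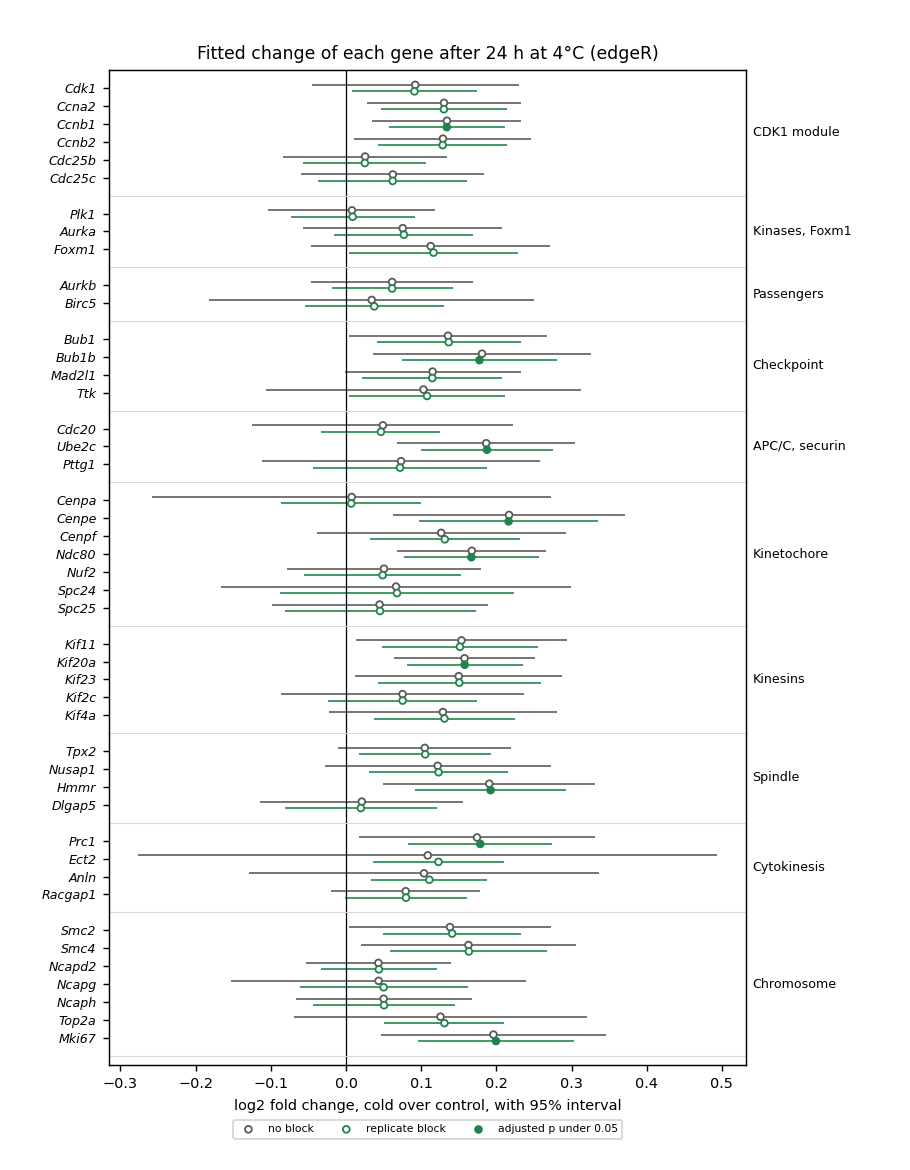
Log2 fold change of each of the 45 genes, cold over control, from edgeR without (grey) and with (green) the replicate number as a block. Lines are 95% intervals and filled points have an adjusted p under 0.05. All 45 points lie above 0 in both fits, and the 9 filled points are all from the fit with the block.

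Levels within the set differed far more than the groups did. Mean levels over all 8 libraries stood at or above the 53.5th percentile of all genes tested. The cyclin Ccnb1, the APC/C activator Cdc20 and its ubiquitin-conjugating enzyme Ube2c had control means above 200 TPM and were the 3 highest of the set in 8 of 8 libraries. In all, 14 genes had a control mean over 100 TPM, and 6 lay under 30 TPM, among them the condensin subunit Ncapg at 18.1 ± 3.09 TPM (SD, n = 4).

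**Figure D2:**
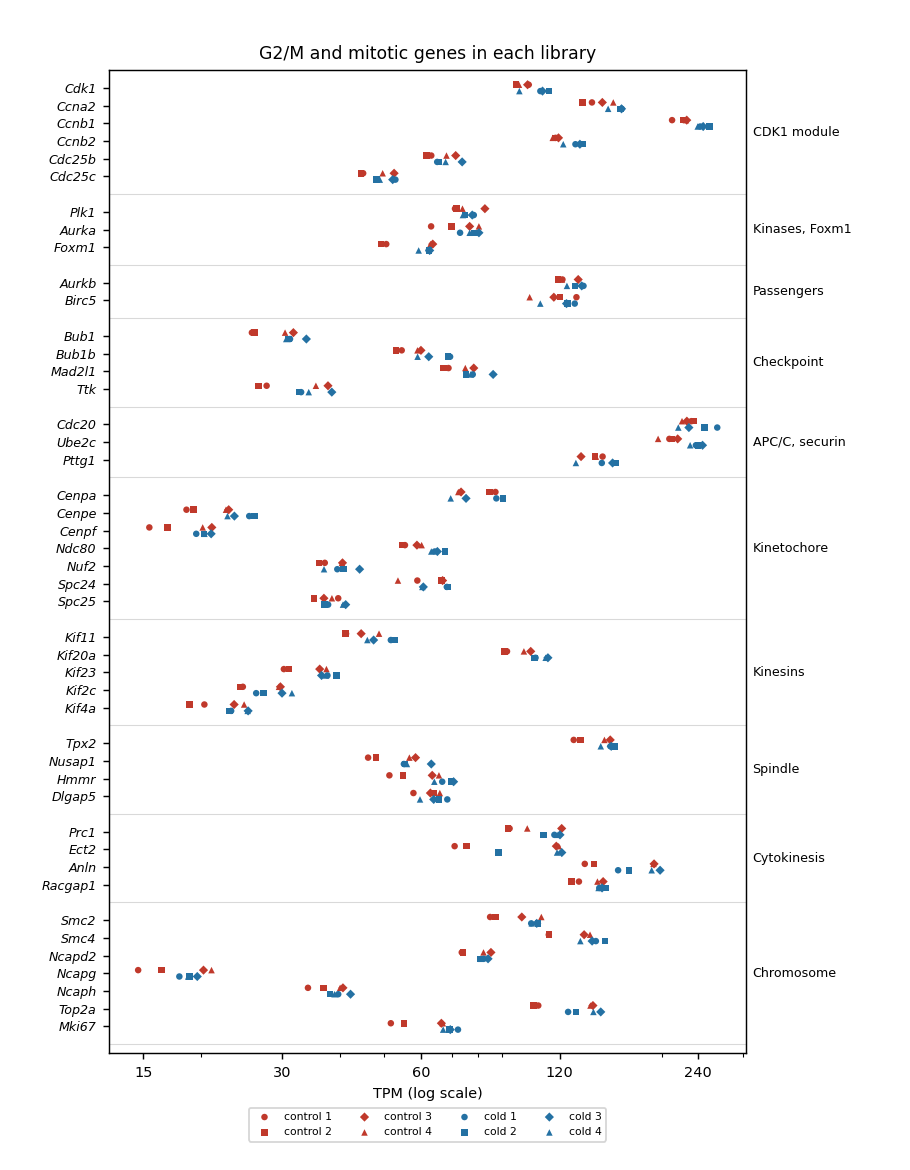
TPM (log scale) of the 45 genes in each of the 8 libraries, grouped by role. Red symbols are control and blue symbols cold libraries, and the shape gives the replicate number. The columns of symbols overlap for most genes, and control replicates 1 and 2 (circles and squares) are often the lowest.

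The CDK1 module comprises the kinase that starts mitosis, its cyclins and the phosphatases that activate it. Cdk1 itself stood at 103, 96.5, 102 and 98.0 TPM in control replicates 1 to 4 and 109, 114, 110.2 and 98.2 TPM in cold replicates 1 to 4. Cold was higher in 4 of 4 pairs but cold replicate 4 lay within the control range, and the log2 fold change of Cdk1 was 0.092 ± 0.061 (adjusted p = 0.941), where the value after ± is the standard error, as for all fold changes here. Ccnb1 (cyclin B1, gene ID 101836169), the cyclin of mitotic entry, was measured at 210.5, 222, 226 and 226 TPM in the control libraries against 242, 254, 246 and 239 TPM in the cold libraries. All 4 cold libraries exceeded all 4 control libraries of Ccnb1, and its log2 fold change was 0.13 ± 0.044 without the block (adjusted p = 0.503) and 0.13 ± 0.037 with it (adjusted p = 0.0378).

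Ccnb2, the second B cyclin, held 118, 118, 119 and 116 TPM in the control libraries against 129.9, 135, 133 and 122 TPM in the cold libraries. Its groups did not overlap either and its control libraries lay close together, yet the adjusted p was 0.684 without the block and 0.0830 with it. Ccna2 (cyclin A2), which acts in S phase and up to early mitosis, was at 141, 134, 149 and 157 TPM in the control libraries against 164, 163, 164 and 153 TPM in the cold libraries. Cold replicates 1 to 3 of Ccna2 were above every control library, whereas cold replicate 4 was below control replicate 4. The log2 fold changes were 0.13 ± 0.052 for Ccnb2 and 0.13 ± 0.046 for Ccna2.

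The phosphatases that activate CDK1 had smaller fitted changes. Cdc25b stood at 63.2, 61.8, 71.4 and 68.2 TPM in the control libraries against 65.1, 65.7, 73.7 and 67.9 TPM in the cold libraries, and Cdc25c at 44.97, 44.5, 52.5 and 49.6 TPM in the control libraries against 52.8, 48.1, 52.1 and 48.9 TPM in the cold libraries. In each, the ranges of the groups overlapped and control replicate 3 was the second highest library. The log2 fold change was 0.025 ± 0.048 for Cdc25b and 0.062 ± 0.054 for Cdc25c, and neither passed in either fit.

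Plk1, the polo-like kinase that promotes entry and spindle assembly, had among the smallest changes of the set. Its levels were 71.2, 71.7, 82.6 and 73.9 TPM in the control libraries against 78.2, 74.9, 77.5 and 74.0 TPM in the cold libraries, and control replicate 3 was the highest of all 8 libraries. The log2 fold change of Plk1 was 0.0079 ± 0.049, with a 95% interval from -0.10 to 0.12. Aurka, the spindle pole kinase, was at 63.1, 69.9, 76.5 and 80.2 TPM in the control libraries against 73.0, 78.5, 80.2 and 76.6 TPM in the cold libraries. Control replicate 1 was the lowest of Aurka and the other 7 libraries overlapped, with a log2 fold change of 0.075 ± 0.059. The forkhead factor Foxm1, which drives transcription of the G2/M genes, was at 50.5, 49.1, 63.7 and 63.0 TPM in the control libraries against 62.4, 62.5, 62.7 and 59.3 TPM in the cold libraries. For Foxm1 the cold libraries lay together within the control range, above control replicates 1 and 2 and below 3 and 4, and the log2 fold change was 0.11 ± 0.071 (adjusted p = 0.921).

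Of the chromosomal passenger complex, which corrects the attachment of chromosomes to the spindle, the kinase Aurkb was at 122, 119, 132 and 121 TPM in the control libraries against 135, 129.6, 134 and 124 TPM in the cold libraries. Cold exceeded control in 4 of 4 pairs of Aurkb, but the groups overlapped and the log2 fold change was 0.061 ± 0.048. Birc5 (survivin), the subunit that brings the complex to centromeres, was at 131, 120.2, 117 and 103 TPM in the control libraries against 129, 125, 124 and 109 TPM in the cold libraries. Here the replicate order was reversed: control replicates 1 and 2 were above 3 and 4. The log2 fold change of Birc5 was 0.034 ± 0.096, less than its standard error.

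The spindle assembly checkpoint holds anaphase until every kinetochore is attached. Bub1b (BubR1, gene ID 101826222), a part of the inhibitory checkpoint complex, was at 54.5, 53.0, 60.0 and 59.0 TPM in the control libraries against 69.4, 68.8, 62.4 and 59.0 TPM in the cold libraries. Cold replicates 1 and 2 were the highest, whereas cold replicate 4 did not exceed control replicate 3. Bub1b had a log2 fold change of 0.18 ± 0.064 without the block (adjusted p = 0.586) and 0.18 ± 0.049 with it (adjusted p = 0.0405). Mad2l1, its partner that binds CDC20, was at 68.9, 67.1, 78.2 and 74.9 TPM in the control libraries against 77.8, 75.1, 86.1 and 77.0 TPM in the cold libraries, and its log2 fold change was 0.12 ± 0.052 (adjusted p = 0.763). The checkpoint kinases Bub1 and Ttk had log2 fold changes of 0.14 ± 0.058 and 0.10 ± 0.093 and passed in neither fit.

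Anaphase begins when the anaphase-promoting complex (APC/C), activated by CDC20 and served by the enzyme UBE2C, destroys securin and cyclin B. Ube2c (gene ID 121134448) was at 208, 211, 216 and 196 TPM in the control libraries against 237, 239, 245 and 230.4 TPM in the cold libraries. The groups of Ube2c did not overlap and cold was higher by a similar step in each pair, log2 ratios of 0.19, 0.18, 0.18 and 0.23. Its log2 fold change was 0.19 ± 0.053 (adjusted p = 0.373) and, with the block, 0.19 ± 0.042 (adjusted p = 0.0102), the lowest adjusted p of the set. Cdc20 was at 232, 235, 227 and 221 TPM in the control libraries against 264, 248, 229 and 217 TPM in the cold libraries. Cold replicates 1 and 2 of Cdc20 were the highest libraries and cold replicate 4 the lowest, so the group means, 229 ± 6.03 and 239 ± 20.5 TPM (SD, n = 4 each), differed by less than the spread of the cold libraries. Securin (Pttg1), which holds separase inactive, was at 149, 143, 134 and 144 TPM in the control libraries against 148, 159, 156 and 130.2 TPM in the cold libraries, and cold replicate 4 was again the lowest of the 8. The log2 fold changes were 0.049 ± 0.077 for Cdc20 and 0.073 ± 0.082 for Pttg1.

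Genes of the centromere and kinetochore, the platform that binds microtubules, spanned the whole range of changes. Cenpe (gene ID 101825954), the kinesin that moves chromosomes to the spindle equator, had the largest change of the set, with 18.6, 19.2, 23.0 and 22.7 TPM in the control libraries against 25.4, 26.1, 23.6 and 22.8 TPM in the cold libraries. Cold replicates 1 and 2 of Cenpe were the highest of all libraries and control replicates 1 and 2 the lowest, while cold replicate 4 lay between control replicates 3 and 4. Its log2 fold change was 0.22 ± 0.069 (adjusted p = 0.469) and, with the block, 0.22 ± 0.057 (adjusted p = 0.0295). Ndc80 (gene ID 101828133), the microtubule-binding subunit of the outer kinetochore, was at 55.4, 54.7, 58.8 and 60.2 TPM in the control libraries against 64.3, 67.6, 65.2 and 63.2 TPM in the cold libraries. The groups of Ndc80 did not overlap, and its log2 fold change was 0.17 ± 0.044, with an adjusted p of 0.0273 with the block.

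Cenpa, the histone variant that marks centromeres, had the smallest change, at 87.1, 84.6, 73.3 and 72.3 TPM in the control libraries against 87.5, 90.5, 75.2 and 69.6 TPM in the cold libraries. In both groups replicates 1 and 2 of Cenpa were above 3 and 4, and the log2 fold change was 0.0075 ± 0.12. Cenpf, a large protein of the outer kinetochore, was at 15.4, 16.9, 21.1 and 20.2 TPM in the control libraries against 19.5, 20.3, 21.0 and 20.4 TPM in the cold libraries. Control replicates 1 and 2 were the lowest of Cenpf, the other 6 libraries lay close together, and the log2 fold change was 0.13 ± 0.074. The other members of the NDC80 complex, Nuf2, Spc24 and Spc25, had log2 fold changes of 0.050 ± 0.057, 0.067 ± 0.10 and 0.045 ± 0.064, each less than its standard error, whereas Ndc80, in the same complex, passed with the block. The difference between Ndc80 and its partners was not tested.

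Among the mitotic kinesins, Kif20a (gene ID 101839517), which acts at the central spindle, was at 92.3, 91.1, 104 and 100.4 TPM in the control libraries against 106, 106, 113 and 112 TPM in the cold libraries. No cold library of Kif20a lay within the control range. The log2 fold change of Kif20a was 0.16 ± 0.042 (adjusted p = 0.311) and with the block 0.16 ± 0.037 (adjusted p = 0.0142). Kif11 (Eg5), which pushes the spindle poles apart, was at 41.3, 41.2, 44.5 and 48.7 TPM in the control libraries against 51.6, 52.6, 47.4 and 45.9 TPM in the cold libraries. Kif23, the motor of centralspindlin, was at 30.3, 31.0, 36.2 and 37.4 TPM in the control libraries against 37.6, 39.4, 36.5 and 37.4 TPM in the cold libraries. In both Kif11 and Kif23 control replicates 1 and 2 were low and cold replicate 4 was under control replicate 4, and their log2 fold changes, 0.15 ± 0.062 and 0.15 ± 0.061, passed in neither fit. The depolymerase Kif2c and the chromokinesin Kif4a were higher in cold in 4 of 4 pairs, with log2 fold changes of 0.075 ± 0.072 and 0.13 ± 0.067.

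Of the spindle assembly factors, Hmmr (gene ID 101840914), which helps to focus spindle microtubules, was at 51.3, 54.9, 63.5 and 65.7 TPM in the control libraries against 66.8, 69.7, 70.7 and 64.2 TPM in the cold libraries. Cold replicate 4 lay below control replicate 4 and the other 3 cold libraries above every control library. The log2 fold change of Hmmr was 0.19 ± 0.063 (adjusted p = 0.505) and with the block 0.19 ± 0.048 (adjusted p = 0.0221). Tpx2, which activates Aurora A and nucleates microtubules, was at 129, 133, 155 and 150.1 TPM in the control libraries against 155, 158, 155 and 147 TPM in the cold libraries. Cold replicate 4 of Tpx2 was below control replicates 3 and 4, and the log2 fold change was 0.10 ± 0.051. Dlgap5, a microtubule-bundling protein near the chromosomes, was at 57.8, 63.8, 62.9 and 66.0 TPM in the control libraries against 68.5, 65.8, 64.0 and 59.7 TPM in the cold libraries and had the third smallest change, 0.021 ± 0.060. Nusap1, another spindle-bundling protein, had a log2 fold change of 0.12 ± 0.067 and a mean of 52.3 ± 6.17 TPM in control against 57.4 ± 3.87 TPM in cold (SD, n = 4 each).

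Of the genes that build the central spindle and divide the cell, Prc1 (gene ID 101826026), which crosslinks antiparallel microtubules, passed with the block (log2 fold change 0.18 ± 0.046, adjusted p = 0.0256). Its levels were 93.5, 92.8, 121 and 102 TPM in the control libraries against 117, 111, 120.2 and 119 TPM in the cold libraries, and control replicate 3 was the highest library. Ect2 and Anln, which switch on RhoA and scaffold the contractile ring, had the replicate sides apart in both groups. Ect2 was at 71.0, 75.4, 118 and 119 TPM in the control libraries against 88.4, 88.4, 121 and 118 TPM in the cold libraries, and Anln at 136, 143, 192 and 192 TPM in the control libraries against 161, 169.7, 198 and 190.1 TPM in the cold libraries. In each gene replicates 1 and 2 were below 3 and 4, and in control by more than cold and control differed within any replicate number. Their log2 fold changes were 0.11 ± 0.17 and 0.10 ± 0.10, and without control replicate 1 they were -0.0022 and 0.030. With the block the standard errors were 0.042 and 0.037, with adjusted p = 0.106 and 0.0976. Racgap1, the partner of KIF23 in centralspindlin, had a log2 fold change of 0.079 ± 0.044.

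The last role covers condensin, which compacts chromosomes, DNA topoisomerase II and the surface protein of mitotic chromosomes. Mki67 (Ki-67, gene ID 101831975), the common marker of proliferating cells, was at 51.6, 55.2, 66.5 and 66.9 TPM in the control libraries against 72.2, 69.2, 69.5 and 67.1 TPM in the cold libraries. The groups of Mki67 did not overlap, but the lowest cold library and the highest control library, both replicate 4, lay next to each other. Its log2 fold change was 0.20 ± 0.067 (adjusted p = 0.544) and with the block 0.20 ± 0.049 (adjusted p = 0.0210). Top2a, which untangles sister chromatids, was at 108, 105, 142 and 140.0 TPM in the control libraries against 125, 130.3, 147 and 142 TPM in the cold libraries. Its adjusted p with the block was 0.0523, just above the threshold. Smc4, a core subunit of both condensins, was at 114, 114, 136 and 139.7 TPM in the control libraries against 144, 150.5, 141 and 133 TPM in the cold libraries. Cold replicate 4 of Smc4 lay within the control range, and the log2 fold change was 0.16 ± 0.063, beside 0.14 ± 0.060 for its partner Smc2. The condensin I subunits Ncapd2, Ncapg and Ncaph had smaller log2 fold changes, 0.043 ± 0.043, 0.043 ± 0.087 and 0.050 ± 0.052.

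Across the set, 6 genes had all 4 cold libraries above all 4 control libraries, beside 2.27% of all genes. They were Ccnb1, Ccnb2, Ube2c, Ndc80, Kif20a and Mki67, and 5 of the 6 also passed the blocked fit. The exact two-sided permutation test of each over the 70 arrangements of the libraries gave p = 0.0286, the smallest it can give, and 0.611 after adjustment over all genes. With fewer libraries to separate, the count was 14 without control replicate 3 (beside 4.52% of all genes), 11 without control replicate 4 (6.68%) and 13 without cold replicate 4 (4.68%). In TPM, 15 genes were higher in cold in 4 of 4 pairs, 25 in 3 and 5 in 2, and none in fewer, beside 12.8% of all genes in 4 of 4. On CPM scaled by TMM factors the 4 of 4 count was 23, beside 12.9% of all genes.

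The fitted difference was larger in replicate numbers 1 and 2. In TPM, the median log2 ratio of cold to control over the 45 genes was 0.21 in pair 1, 0.22 in pair 2, 0.056 in pair 3 and -0.0023 in pair 4. Over all genes tested the same medians were 0.056, 0.050, 0.012 and -0.037. The number of genes of the set higher in cold was 42, 45, 36 and 22 of 45 in pairs 1 to 4. Over all 12506 genes it was 7696, 7601, 6728 and 5016. In 34 genes of the set both ratios of pairs 1 and 2 exceeded both of pairs 3 and 4, which was not counted over all genes. The difference between the pairs was not tested.

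**Figure D3:**
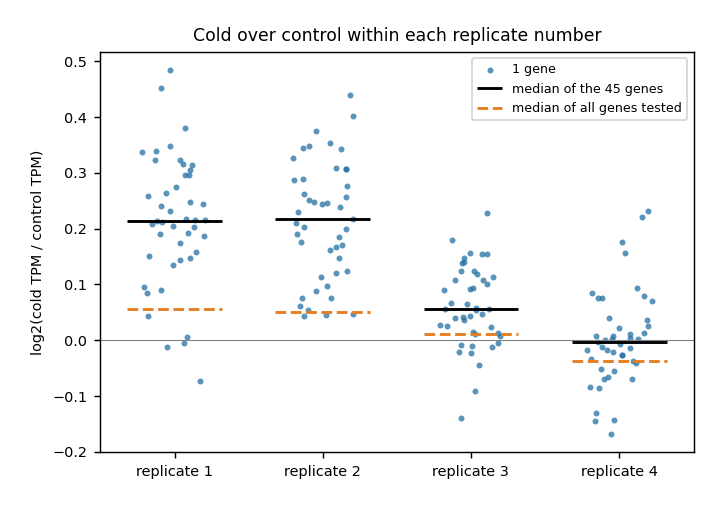
Log2 ratio of cold to control TPM within each replicate number, 1 point per gene, with the median of the 45 genes (black) and of all genes tested (dashed orange). The black line stands at 0.21 and 0.22 for replicates 1 and 2, and at 0.056 and -0.0023 for replicates 3 and 4.

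Fitted on replicates 1 and 2 alone, 24 of the 45 genes were higher at an adjusted p under 0.05, beside 4.73% of all genes, with a median log2 fold change of 0.15. This fit compares 2 libraries a group, whose chi-square per gene was 2.44 in control and 2.76 in cold, against 18.8 to 27.0 between the sides. For Mki67 the log2 fold change was 0.34 ± 0.042 on replicates 1 and 2 and 0.049 ± 0.055 on 3 and 4. Cenpe (0.38), Mki67 (0.34) and Smc4 (0.31) had the largest changes on replicates 1 and 2. On replicates 3 and 4 alone, with a chi-square of 7.002 and 4.78, 0 of 45 passed, beside 0.0159% of all genes called higher, and the median was 0.035. At an unadjusted p under 0.05, 2 genes of the set were higher in replicates 3 and 4, Ube2c (0.21) and Kif20a (0.15), beside 1.70% of all genes. Kif20a had a log2 fold change of 0.15 in each of these fits, and Ube2c had 0.15 on replicates 1 and 2. The other 7 of the 9 genes called with the block had smaller changes on replicates 3 and 4 than on 1 and 2.

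The control libraries of replicates 1 and 2 were the low ones. In 34 of the 45 genes both were below control replicates 3 and 4, and in 3 (Birc5, Cdc20 and Cenpa) both were above. In cold the same order held in 12 genes and the opposite in 10. The share of all genes with these orders was not counted, and the replicate sides also stood apart over all genes. Control replicate 1 was the lowest of the 8 libraries in 19 genes and control replicate 2 in another 19, whereas cold replicate 3 was the highest in 16 and cold replicate 2 in 13.

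Summed over the 45 genes, the level was 3600.5, 3615, 4044 and 3962 TPM in control replicates 1 to 4, and 4131, 4166, 4244 and 4004 TPM in cold replicates 1 to 4. The mean was 3806 ± 231 TPM in control and 4136 ± 100.1 TPM in cold (SD, n = 4 each), 8.69% higher, and control replicate 3 exceeded cold replicate 4. These transcripts made up 0.670% to 0.805% of the counts of a library. The spread between libraries was smaller in cold: the SD of log2 TPM was lower in cold than in control in 36 of 45 genes (80.0%, beside 58.4% of all genes), with a median of 0.067 against 0.13, as a description without a test.

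**Figure D4:**
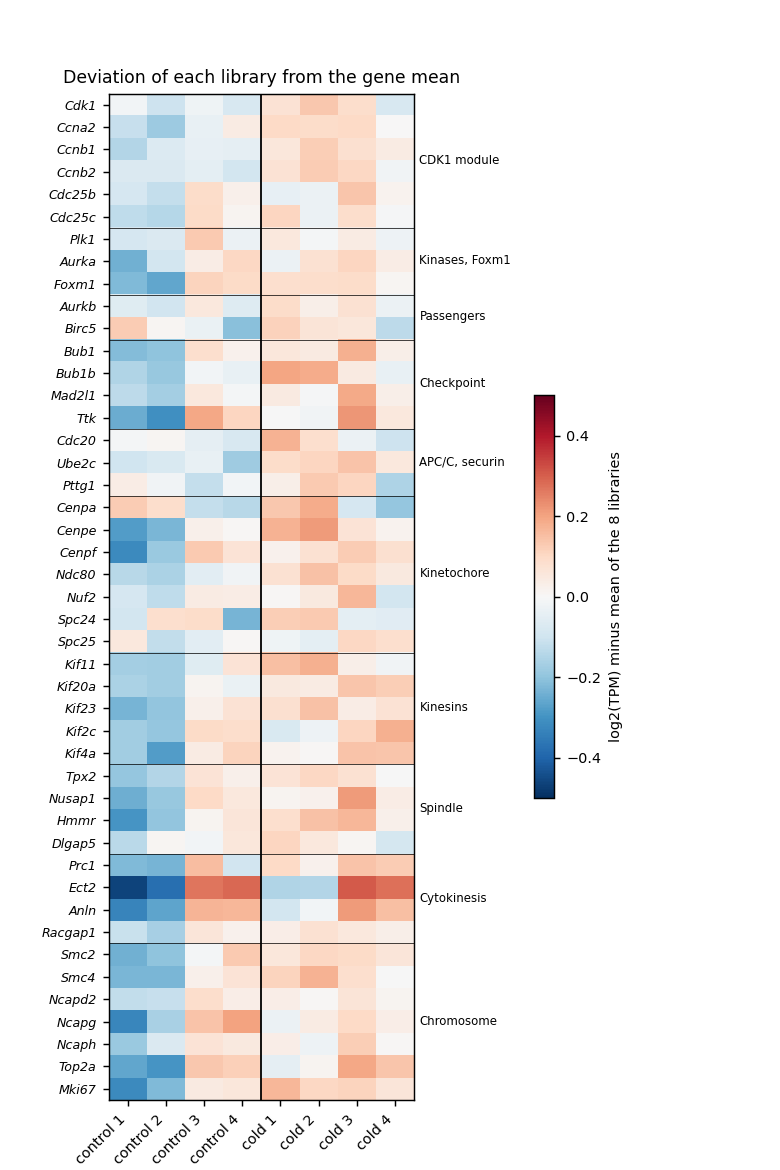
Deviation of each library from the mean of the 8 libraries, in log2 TPM, for each of the 45 genes, with control libraries on the left and cold on the right. Control replicates 1 and 2 are blue (below the gene mean) in most genes, with 4 and 5 genes above it, whereas control replicates 3 and 4 were above it in 30 and 29 genes.

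Markers of muscle differentiation, the state that follows cell cycle exit, were lower in cold within each replicate number, and their sums overlapped between the groups. The summed level of 13 such genes, among them myogenin and the early myosins, was 10452, 10531, 5466 and 5988 TPM in control replicates 1 to 4, and 5264, 6159, 3587 and 3521 TPM in cold replicates 1 to 4. In control the libraries with the lowest G2/M sums, replicates 1 and 2, had the highest differentiation sums. In cold this order did not hold, since replicate 4 had the lowest of both sums and replicate 2 the highest differentiation sum with the second highest G2/M sum. All 13 were lower in cold in 4 of 4 pairs, where 1351 of all 12506 genes were higher in cold in 0 pairs. In 9 of the 13, all 4 cold libraries lay below all 4 control libraries, as in 301 of all genes. Their median log2 fold change was -1.49. Without the block 1 of 13 passed, beside 0.0720% of all genes, and 10 were lower at an unadjusted p under 0.05, beside 4.13%. With the block 13 of 13 passed, beside 4.07% of all genes called lower. The study named several of them from these libraries, so their direction is not independent evidence. The part of these markers in the result for the G2/M genes was not tested.

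Other genes of the pathway were counted from lists. Among 54 further G2/M genes, 51 had a log2 fold change above 0, beside 52.9% of all genes, with a median of 0.087, and without the block 0 passed in edgeR (9 higher at an unadjusted p under 0.05, beside 2.57% of all genes). With the block 6 rose, beside 1.26%, of which Kif20b (0.24 ± 0.049), Cdca2 (0.17 ± 0.049) and Cep55 (0.17 ± 0.042) had the largest changes, and 0 fell. Of 42 genes of DNA replication and S phase, 40 were above 0, beside 52.9%, with a median of 0.092, and without the block 0 passed (10 higher at an unadjusted p under 0.05, beside 2.57%). With the block 5 rose, beside 1.26%, led by the origin-firing factor Mcm10 (0.35 ± 0.071), the ribonucleotide reductase subunit Rrm1 (0.15 ± 0.037) and the helicase subunit Mcm5 (0.15 ± 0.038). The sliding clamp Pcna (0.15 ± 0.038) and the helicase subunit Mcm6 (0.14 ± 0.039), the other two, were named after their values were seen. Cohesin, which holds sister chromatids together, had 12 of 14 above 0, beside 52.9% of all genes, and 0 passed without the block (3 higher and 1 lower at an unadjusted p under 0.05, beside 2.57% and 4.13%). Its core subunits Smc3 (0.21 ± 0.042) and Smc1a (0.17 ± 0.042) rose with the block, beside 1.26% of all genes. All 3 genes of condensin II were above 0, with 0 passing in either edgeR fit and 2 and 3 higher at an unadjusted p under 0.05 without and with the block, beside 2.57% and 8.48%.

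The genes that restrain CDK1 and G2/M entry were split. Of 9 tested, 6 had a log2 fold change below 0, with a median of -0.17. Without the block 0 passed in edgeR, with 3 lower (beside 4.13% of all genes) and 0 higher at an unadjusted p under 0.05. With the block 4 fell and 0 rose, beside 4.07% and 1.26% of all genes. Cdkn1a (p21), the CDK inhibitor of cell cycle exit, was at 829, 778, 656 and 643 TPM in the control libraries against 542, 599, 564 and 534 TPM in the cold libraries. No cold library of Cdkn1a overlapped the control range, and with the block it changed by -0.39 ± 0.053 on the log2 scale (adjusted p = 6.92e-05; without the block 0.331). Cdkn1c (p57) changed by -0.82 ± 0.082 and Gadd45g by -0.55 ± 0.099 with the block, and Gadd45b, named after its values were seen, by -0.29 ± 0.071. Gadd45a, also named after its values were seen, was at 21.2, 20.9, 21.2 and 18.1 TPM in the control libraries against 24.5, 22.5, 21.4 and 23.7 TPM in the cold libraries, so that every cold library was above the control range, with a log2 fold change of 0.16 ± 0.096 (adjusted p = 0.894, with the block 0.311). The kinases that phosphorylate CDK1 passed in neither edgeR fit: without the block Wee1 had a log2 fold change of 0.11 ± 0.055 and Pkmyt1 of -0.17 ± 0.18. With the block these were 0.11 ± 0.047 (adjusted p = 0.227) and -0.17 ± 0.050 (adjusted p = 0.0635). In every pair Wee1 was higher and Pkmyt1 lower in cold. All of the 4 that fell were highest in control replicates 1 and 2, the libraries in which the G2/M genes were lowest.

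Regulators of transcription and of mitotic exit were split. Of 12 genes of the DREAM and MuvB complex, 6 had a log2 fold change above 0 and 6 below, beside 52.9% of all genes above 0, and 0 passed without the block (1 higher at an unadjusted p under 0.05, beside 2.57%). Mybl2, which activates G2/M genes together with FOXM1, rose with the block (0.15 ± 0.042, adjusted p = 0.0419), as the only gene of the 12, beside 1.26% of all genes, and its cold libraries did not overlap the control libraries. Of 17 APC/C genes, 13 were above 0, beside 52.9%, with a median of 0.019. Of these genes 0 passed in either edgeR fit, with 0 and 3 higher at an unadjusted p under 0.05 without and with the block, beside 2.57% and 8.48%. Fzr1 (CDH1), which keeps the complex active in G1, had a log2 fold change of 0.11 ± 0.060. Of 8 G1 cyclins, kinases and regulators, 0 passed without the block (1 higher and 1 lower at an unadjusted p under 0.05, beside 2.57% and 4.13%). Myc (0.21 ± 0.046) and Cdk6 (0.13 ± 0.036) rose with the block and the retinoblastoma gene Rb1 (-0.45 ± 0.053) fell, beside 1.26% and 4.07% of all genes.

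**Figure D5:**
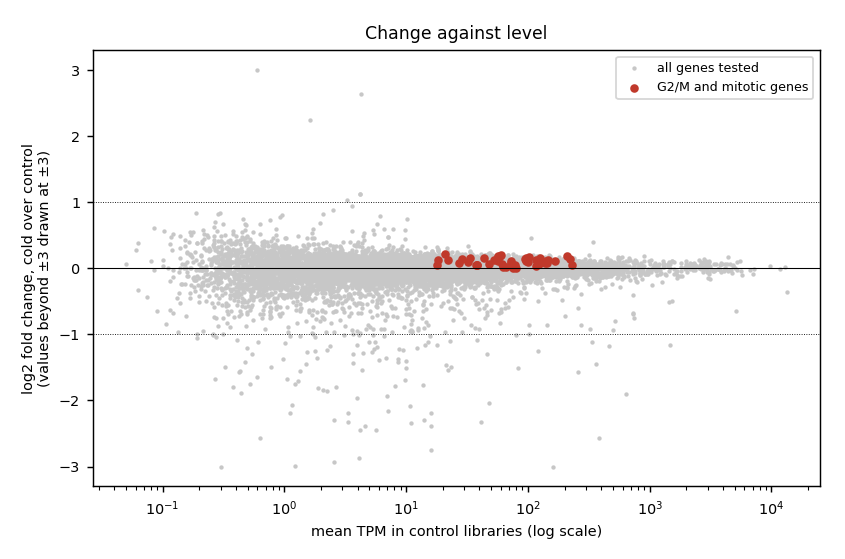
Log2 fold change, cold over control, against the mean TPM of the control libraries (log scale) for all genes tested (grey) and the 45 G2/M and mitotic genes (red), with dotted lines at a log2 fold change of 1 and -1. The red points form a narrow band between 0.0075 and 0.22, inside the grey cloud and far from the dotted lines.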

How the data were processed

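RNA-seq (polyA RNA) was analysed for 4 control and 4 cold libraries. The authors deposited, per gene, estimated (expected) counts, normalized counts (a signal) and TPM values. Their processing notes name HISAT and HISAT2, while the counting program and the genome build are not given in the sources used here. The deposited TPM were used for levels, pairs and the exact tests, and the deposited estimated counts, rounded to whole numbers, for edgeR. In each library 96.4% to 96.7% of genes had whole counts, and all 45 genes described did. The deposited normalized counts equal the counts, rounded up, times 1 factor per library (0.924 to 1.02) and served as an alternative scale. All 45 gene IDs carried the same symbol in RefSeq, used for names only. No sequence or coordinate is given.

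The main test was edgeR 4.0.16 (quasi-likelihood, TMM, filterByExpr, no block) in R 4.3.3, with Benjamini-Hochberg adjustment over 12506 genes. Replicate numbers paired the libraries: the correlations of same-numbered deviations from the group means were 0.60, 0.61, 0.64 and 0.65. Different numbers correlated at 0.43 to 0.58 within the sides 1 and 2 or 3 and 4, and at -0.55 to -0.60 across them. Alternatives were a replicate block, other scalings and filters, DESeq2 1.42.0, limma 3.58.1 on log2(TPM + pseudocount of 0.01, 0.1 or 1), replicates 1 and 2 or 3 and 4 alone, and leaving out each library. No 2 libraries of the same group were alike within sampling noise, as the lowest chi-square per gene was 2.44.

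All 45 genes are named by role. Values in every library are given for up to 6 chosen genes a role and for the 3 largest and 3 smallest changes, and for Kif20a and Prc1, added after their values were seen. Of the other lists, at most 3 genes a direction that passed are named, with Wee1, Pkmyt1, Cdkn1a, Mybl2 and Fzr1 in any case, and Pcna, Mcm6, Gadd45a and Gadd45b were added after their values were seen. Members and lists were chosen with earlier results of these data known.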

Additional observations from a re-analysis of the deposited data

Results flagged for a closer look

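In 3 of the 90 groups of 4 libraries (45 genes in 2 conditions), 1 library lay far from the other 3 by Dixon's test, where chance gives about 1 in 20, or 4.5. Ccna2 in cold replicate 4 was at 152.94 TPM, below 162.78 to 163.66 TPM in the other cold libraries. Foxm1 in the same library was at 59.34 TPM, below 62.38 to 62.7 TPM. Nusap1 in cold replicate 3 was at 63.2 TPM, above 55.12 to 55.96 TPM in the other cold libraries. Without cold replicate 4 the log2 fold change of Ccna2 was 0.15 and that of Foxm1 0.13, and without cold replicate 3 that of Nusap1 was 0.080.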

How the results depend on the processing

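Of 945 values (45 genes under 21 alternatives), 884 kept their direction and their side of the adjusted p threshold, 36 gained significance and 25 changed sign, in 12 genes, none with an adjusted p under 0.05. No sign changed in the 11 alternatives that used all 8 libraries. Main-test calls at an adjusted p under 0.05 numbered 0, against 9 with the replicate block, 1 with DESeq2, 2 with DESeq2 and the replicate block, 24 on replicates 1 and 2 alone (2 libraries a group) and 0 in all others. On replicates 1 and 2 alone Birc5 (-0.027) and Spc25 (-0.050) were below 0, and on replicates 3 and 4 alone Cdc25c (-0.0026), Plk1 (-0.032), Foxm1 (-0.041), Dlgap5 (-0.054) and Ncapg (-0.091). Leaving out each library gave log2 fold changes from -0.017 to 0.039 for Plk1, -0.016 to 0.058 for Dlgap5, -0.0022 to 0.21 for Ect2, -0.036 to 0.10 for Ncapg, -0.067 to 0.074 for Cenpa, -0.038 to 0.098 for Birc5, -0.0040 to 0.12 for Spc24, -0.0075 to 0.094 for Cdc20 and -0.0085 to 0.045 for Cdc25b. In 27 of the 45 genes, 0 of them called with the block, leaving out 1 library moved the unblocked log2 fold change by over 1.5 times, for example 0.030 to 0.17 for Anln, 0.036 to 0.17 for Ttk and 0.024 to 0.11 for Aurka. The median over the 45 genes ran from 0.076 (without control replicate 1) to 0.13 (without control replicate 3). The 6 genes with separate groups were 6 to 14 on leaving out a library, with 14 without control replicate 3 (beside 4.52% of all genes), 11 without control replicate 4 (6.68%) and 13 without cold replicate 4 (4.68%), against 2.27% with all 8 libraries. The 15 genes higher in 4 of 4 pairs were 23 on CPM. Each gene had 281 to 15281 counts in a library, the fewest in Spc24.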
